A study of Daphnia magna with 335 samples.

Results

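The probes described here changed with cis-nonachlordane, while their mean with 2-tert-butyl-4-methoxyphenol at its highest concentration stayed near that of solvent pools. They number 17 of the 2378 probes of the table, and 13 of them were raised and 4 lowered by cis-nonachlordane. They were selected on measured values, namely log2 ratios of mean CPM with 2 CPM added to both means, where CPM is the count of a probe scaled to the same total in each library. The first ratio, called n here, set all 9 pools given 2.113, 6.677 or 21.1 µM cis-nonachlordane against the 6 solvent pools of the same exposure. The second, called b, set the 3 pools given 66.67 µM methoxyphenol against the 6 solvent pools of its own exposure. A probe was kept if its mean over all 36 solvent pools lay between 10 and 3000 CPM, n was at least 0.6 in size and b under 0.5 in size. Of the 1353 probes in that window of level, 115 passed the limit on n, and 573 had a b under the limit. Among those 115 probes, 43 were past 0.5 with methoxyphenol in the raised direction as well, 42 in the lowered direction, and 13 in the opposite direction.

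The animals were whole Daphnia magna, a water flea long used to test water quality. Their transcripts were read by TempO-Seq, in which 2 short detector oligonucleotides are ligated side by side on an RNA and the ligated product is counted. Animals were held for 24 h in lake water with 1 of 12 chemicals at 8 concentrations, or in the solvent dimethyl sulfoxide (DMSO) alone, and DMSO was brought to the same share in all wells of an exposure. A library came from 1 pool of up to 5 animals, since dead animals were left out, with 3 pools per concentration, each made within 1 of the plates of an exposure and labelled A, B or C; the labels do not say which letter is which plate. Pairs of chemicals shared an exposure and its 6 DMSO pools. cis-Nonachlordane was given at 0.021, 0.067, 0.212, 0.669, 2.113, 6.677, 21.1 and 66.67 µM alongside fexofenadine at 0.0108 to 34.2 µM, and methoxyphenol at 0.021 to 66.67 µM alongside Metribuzin-DA. Totals ran from 412739 to 826525 counts in the 24 cis-nonachlordane libraries, from 301907 to 725046 in the 24 fexofenadine libraries and from 293743 to 652798 in their DMSO pools. Since the pools of a group share 1 exposure, p-values measure the spread between these pools. In whole animals, fewer cells of a kind and less RNA per cell cannot be told apart.

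cis-Nonachlordane is a constituent of the organochlorine insecticide chlordane, whose cyclodiene components block chloride channels gated by the transmitter GABA in the arthropod nervous system. 2-tert-Butyl-4-methoxyphenol is a phenolic antioxidant used to keep fats in food from going rancid. Fexofenadine is an antihistamine drug for human use, fipronil amide is a breakdown product of a phenylpyrazole insecticide with the same kind of channel as its target, and 3,4-dichlorophenyl isocyanate is a reactive chlorinated aromatic compound. The probe identifiers carry a transcript name (Dapma7bEVm and a number) and a probe number. None of them matched the gene identifiers of the annotation table at hand (0 matches), so no gene name or role is given for any probe.

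The raised members had a median log2 ratio to DMSO of 0.80 to 0.90 at the 5 highest concentrations, while at 66.67 µM the lowered members had a median near DMSO and 2 of the 4 lay below it. The median log2 ratio of the 13 raised members to the DMSO pools was 0.05, 0.46, 0.51, 0.82, 0.90, 0.86, 0.80 and 0.82 in order of rising concentration. That of the 4 lowered members was -0.14, -0.69, -0.10, -0.70, -0.92, -1.11, -0.80 and -0.04 in the same order. Over all 1353 probes of the window, the median stayed between -0.08 and 0.06. Values at 2.113, 6.677 and 21.1 µM chose the members, and the other levels share the DMSO pools of the rule, so these ratios are descriptions with no test.

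**Figure D1:**
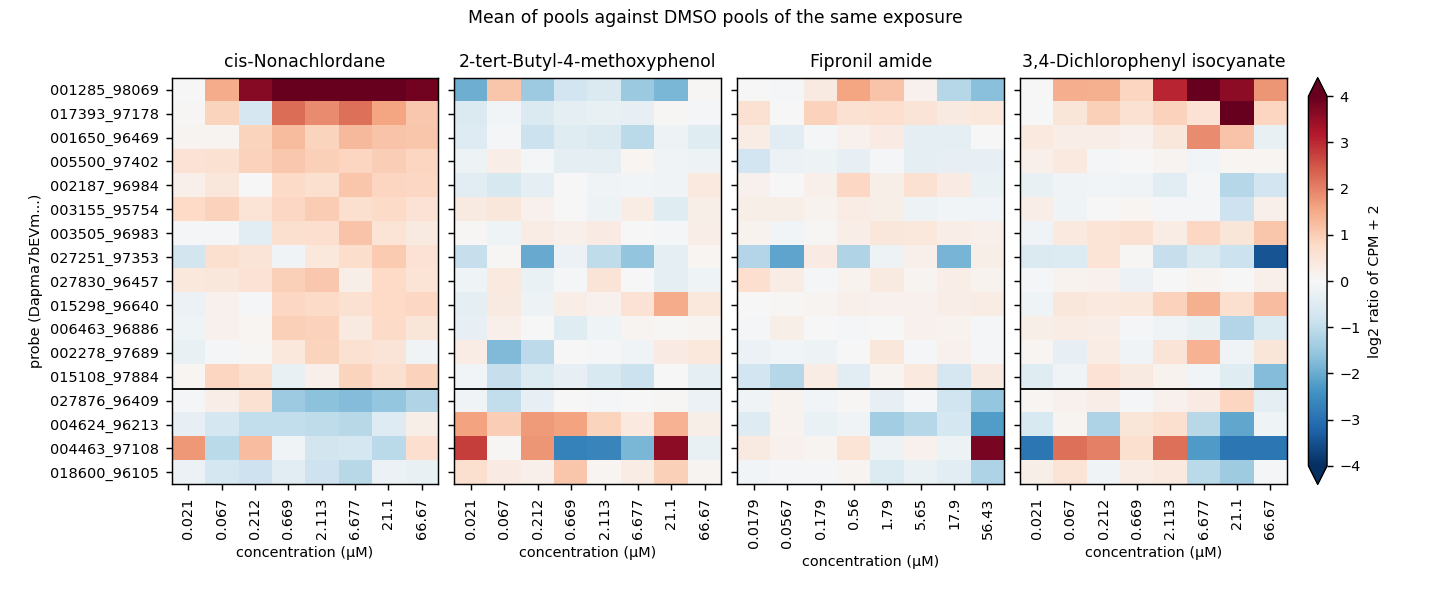
Log2 ratio of mean CPM + 2 to the DMSO pools of the same exposure for the 17 probes (rows; 13 raised above the black line, 4 lowered below it) at 8 concentrations in µM, low to high, of 4 chemicals. Dapma7bEVm001285_98069 is at 3.64 or more from 0.212 µM cis-nonachlordane up, and Dapma7bEVm027876_96409 is at 0.62 at 0.212 µM and at -1.46 at 0.669 µM.

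Dapma7bEVm001285_98069 had by far the largest n, 4.49, a 22.5-fold ratio. Pools A, B and C had 407, 430 and 54.0 CPM at 2.113 µM, then 559, 324 and 309 CPM at 6.677 µM, and 81.5, 435 and 279 CPM at 21.1 µM, against 10.2 to 16.9 CPM in the 6 DMSO pools of the exposure. Each of these 9 pools lay above every DMSO pool, and pool C at 2.113 µM was the lowest of them. The next raised members by n were Dapma7bEVm017393_97178 (1.90), Dapma7bEVm001650_96469 (1.12), Dapma7bEVm005500_97402 (0.93), Dapma7bEVm002187_96984 (0.88), Dapma7bEVm003155_95754 (0.81), Dapma7bEVm003505_96983 (0.81), Dapma7bEVm027251_97353 (0.74), Dapma7bEVm027830_96457 (0.74) and Dapma7bEVm015298_96640 (0.73). The last 3 were Dapma7bEVm006463_96886 (0.70), Dapma7bEVm002278_97689 (0.67) and Dapma7bEVm015108_97884 (0.60). Among the lowered members n was -1.63 for Dapma7bEVm027876_96409, -0.85 for Dapma7bEVm004624_96213, -0.83 for Dapma7bEVm004463_97108 and -0.68 for Dapma7bEVm018600_96105.

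Some members stood close to the limits of the rule. Just outside the limit on n lay Dapma7bEVm004610_95934 at 0.58 and Dapma7bEVm013863_98047 at 0.55 among raised probes, and Dapma7bEVm027495_95772 at -0.57 and Dapma7bEVm010250_97553 at -0.54 among lowered ones. Nearest inside the limit on b were Dapma7bEVm001650_96469 at -0.49 and Dapma7bEVm015298_96640 at 0.41, and nearest outside it were Dapma7bEVm000287_97054 at 0.53 and Dapma7bEVm019947_97721 at 0.57. On the lowered side the nearest outside were Dapma7bEVm016063_95924 at -0.56 and Dapma7bEVm009565_95706 at -0.60. Dapma7bEVm004463_97108 rests on almost no reads: it held 2 counts in the 9 cis-nonachlordane pools and 7 in the 6 DMSO pools of the exposure, and it was at 0 in all but 165 of the 335 libraries.

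The libraries the rule did not use gave a separate look at the members. These were the 15 cis-nonachlordane pools at 66.67, 0.669, 0.212, 0.067 and 0.021 µM, set against the 24 fexofenadine pools of the same exposure, which are treated pools themselves and not solvent pools. The quasi-likelihood test of edgeR was run on the counts, p-values were adjusted by Benjamini-Hochberg over the 1410 probes that passed its filter on low counts, and a probe was called at an adjusted p under 0.05. All members but Dapma7bEVm002278_97689 passed that filter, 12 raised and 4 lowered.

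At 0.669 µM, the level next below those of the rule, 7 of the 12 tested raised members were called higher with cis-nonachlordane than with fexofenadine, against 5.04% of all probes tested. Of the 4 lowered members 1 was called lower, against 3.62% of all probes. The raised members called were Dapma7bEVm001285_98069, Dapma7bEVm017393_97178, Dapma7bEVm001650_96469, Dapma7bEVm015298_96640, Dapma7bEVm006463_96886, Dapma7bEVm027830_96457 and Dapma7bEVm003505_96983, and the lowered one was Dapma7bEVm027876_96409. The median log2 fold change was 0.67 over the tested raised members and -0.58 over the lowered ones, against -0.01 over all probes tested. Leaving out the pools of any 1 letter lowered the raised count to 4: Dapma7bEVm001285_98069, Dapma7bEVm017393_97178, Dapma7bEVm001650_96469 and Dapma7bEVm015298_96640 were called in each such fit, while Dapma7bEVm006463_96886, Dapma7bEVm027830_96457 and Dapma7bEVm003505_96983 were called in none of them.

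At 66.67 µM, 3 raised members were called higher than with fexofenadine, against 3.4% of all probes, and 1 lowered member was called lower, against 3.33%. These were Dapma7bEVm001285_98069, Dapma7bEVm001650_96469, Dapma7bEVm015298_96640 and the lowered Dapma7bEVm027876_96409, all of which were called at 0.669 µM too. At 0.212 µM the 1 member called was Dapma7bEVm001285_98069, against 0.142% of all probes called higher. Of the lowered members 0 were called in edgeR and 0 in DESeq2, with 0.0% of all probes called lower. The 1 under an unadjusted p of 0.05, Dapma7bEVm027876_96409, was higher than with fexofenadine. The pools at 0.067 and 0.021 µM, tested as 1 group, gave 0 called members in edgeR and 0 in DESeq2, and 0 of the 16 were under an unadjusted p of 0.05. Over all probes 0.0% were called at those levels in either direction, and 106 of 1410 were under an unadjusted p of 0.05.

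**Figure D2:**
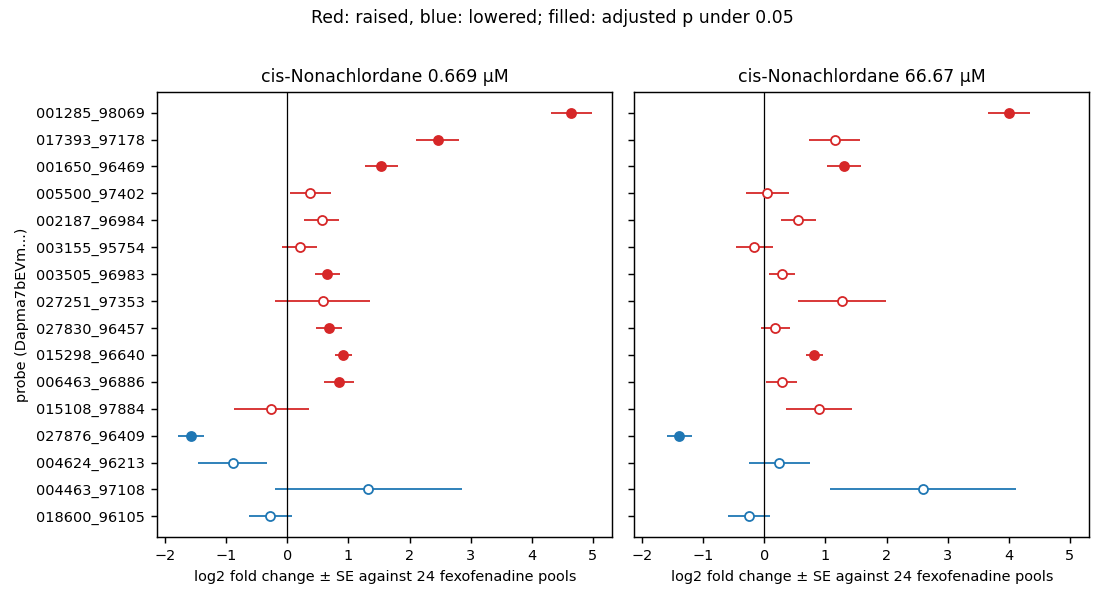
Log2 fold change with its standard error of cis-nonachlordane over the 24 fexofenadine pools, in libraries the rule did not use, at 0.669 µM (left) and 66.67 µM (right), for the 16 members tested. Filled points passed an adjusted p of 0.05; 8 did at 0.669 µM and 4 at 66.67 µM.

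Dapma7bEVm001285_98069 showed the widest range. Its pools A, B and C had 293, 206 and 410 CPM at 0.669 µM cis-nonachlordane, while the fexofenadine pools had a lowest of 1.74, a median of 11.1 and a highest of 23.2 CPM. At 0.212 µM they had 114, 329 and 84.9 CPM, still above every fexofenadine pool. The log2 fold change from edgeR was 4.65 ± 0.33 at 0.669 µM (SE, 3 pools against 24, adjusted p = 2.217e-11), 3.89 ± 0.36 at 0.212 µM (adjusted p = 1.516e-08) and 4.00 ± 0.35 at 66.67 µM (adjusted p = 1.514e-09). At 0.067 µM pool B alone was high, with 85.3 CPM against 17.0 and 12.9 in pools A and C, and at 0.021 µM the pools had 15.3, 6.56 and 15.6 CPM.

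Dapma7bEVm017393_97178 had 152, 96.1 and 38.0 CPM at 0.669 µM, 7.27, 9.67 and 16.3 CPM at 0.212 µM and 21.8, 55.6 and 47.1 CPM at 66.67 µM. The fexofenadine pools had 0, 15.3 and 60.7 CPM as lowest, median and highest. Only pools A and B at 0.669 µM lay above all of these. Its log2 fold change was 2.46 ± 0.35 at 0.669 µM (edgeR adjusted p = 1.252e-05) and 1.15 ± 0.42 at 66.67 µM (edgeR adjusted p = 0.1007). Within the levels of the rule it was uneven as well, with 42.6, 229 and 5.39 CPM at 6.677 µM.

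Dapma7bEVm001650_96469 had 111, 135 and 102 CPM at 0.669 µM and 58.7, 164 and 92.7 CPM at 66.67 µM, against 16.4, 38.1 and 66.2 CPM as the lowest, median and highest fexofenadine pool. All 3 pools at 0.669 µM were above every fexofenadine pool, and at 66.67 µM pool A was not. The log2 fold change was 1.54 ± 0.28 at 0.669 µM (edgeR adjusted p = 0.0002705) and 1.30 ± 0.28 at 66.67 µM (edgeR adjusted p = 0.002569). Without the pools lettered B the value at 66.67 µM was 0.79 and was no longer called (edgeR adjusted p = 0.2795).

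Dapma7bEVm015298_96640 rose in a step, except that pool A at 0.067 µM already stood at the upper level. Pools of this probe had 248 to 330 CPM at 0.021 µM, 580, 247 and 316 CPM at 0.067 µM and 290 to 397 CPM at 0.212 µM. They then had 664, 570 and 579 CPM at 0.669 µM and 674, 604 and 529 CPM at 66.67 µM. Fexofenadine pools had a lowest of 218, a median of 326 and a highest of 394 CPM, below all pools at 0.669 µM and above. The log2 fold change was 0.92 ± 0.14 at 0.669 µM (edgeR adjusted p = 3.074e-05), 0.82 ± 0.14 at 66.67 µM (edgeR adjusted p = 0.0001872) and 0.09 ± 0.16 at 0.212 µM (edgeR adjusted p = 0.9566). Its mean lay between 527 and 604 CPM at each of the 5 highest concentrations.

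Dapma7bEVm027876_96409 fell in a step at the same place. At 0.212 µM its pools had 264, 251 and 249 CPM, and at 0.669 µM they had 50.8, 57.1 and 67.4 CPM. Fexofenadine pools had a lowest of 106, a median of 182 and a highest of 227 CPM, and the DMSO pools 102 to 221 CPM. Thus the pools at 0.212 µM lay above both ranges and those at 0.669 µM and at each higher level lay below both. The log2 fold change against fexofenadine was 0.60 ± 0.17 at 0.212 µM (edgeR adjusted p = 0.2194), -1.57 ± 0.21 at 0.669 µM (edgeR adjusted p = 6.889e-06) and -1.39 ± 0.21 at 66.67 µM (edgeR adjusted p = 2.228e-05). Pools at 66.67 µM had 63.7, 76.9 and 69.9 CPM.

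**Figure D3:**
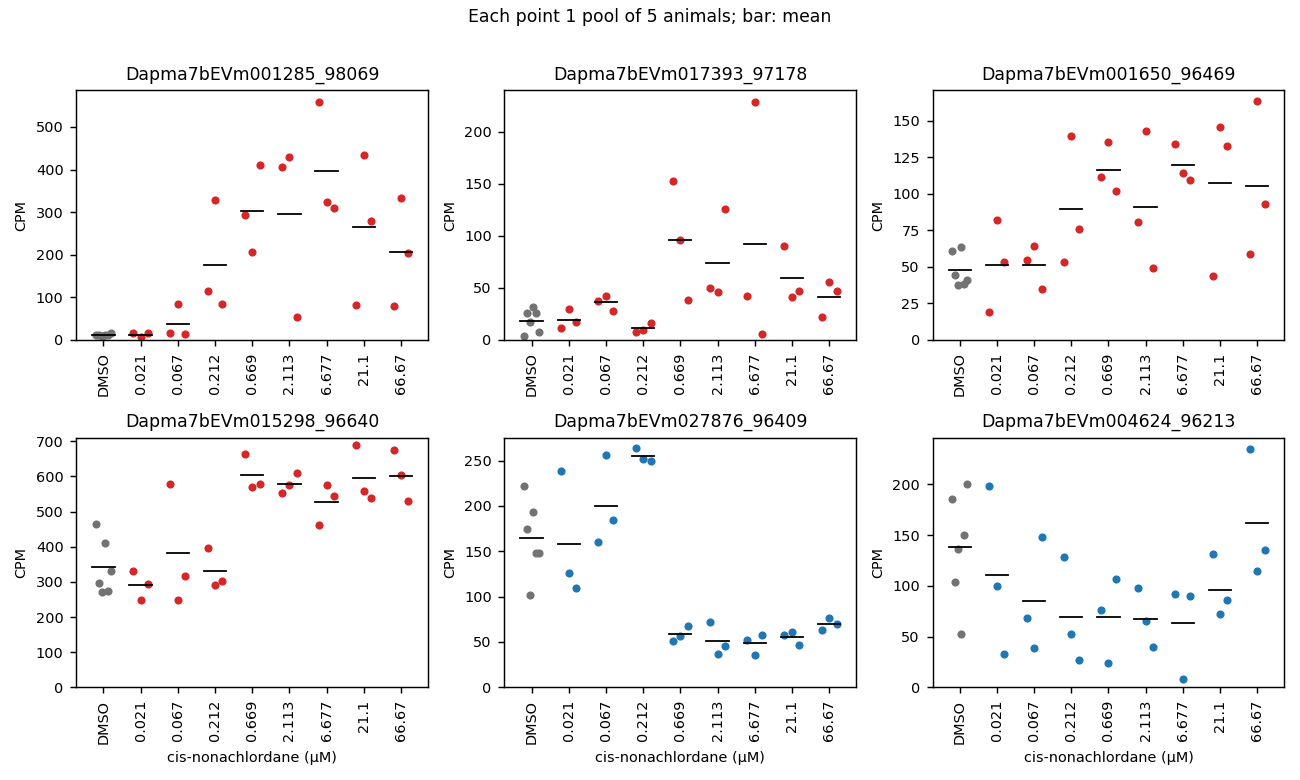
CPM of single pools (points) and their mean (bars) in DMSO and at 8 concentrations of cis-nonachlordane in µM, low to high, for 4 raised members (red) and 2 lowered ones (blue). Dapma7bEVm015298_96640 and Dapma7bEVm027876_96409 change between 0.212 and 0.669 µM; Dapma7bEVm004624_96213 has pools within the DMSO range at every level.

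The other raised members called at 0.669 µM had smaller differences. Dapma7bEVm006463_96886 had 50.8, 34.8 and 100.3 CPM there, against a median of 34.9 CPM with fexofenadine, a log2 fold change of 0.84 ± 0.24 (edgeR adjusted p = 0.02133). Dapma7bEVm027830_96457 had 32.7, 45.9 and 45.0 CPM, against a median of 26.2, a log2 fold change of 0.68 ± 0.22 (edgeR adjusted p = 0.04657); this call was lost in 6 of 8 alternatives, with an adjusted p of up to 0.4216. Dapma7bEVm003505_96983 had 174, 150.4 and 154 CPM, against a median of 99.2, a log2 fold change of 0.65 ± 0.21 (edgeR adjusted p = 0.04369), lost in 4 of 8 alternatives. In Dapma7bEVm006463_96886 pool B lay near the fexofenadine median, and in Dapma7bEVm003505_96983 only pool A exceeded the highest fexofenadine pool, 168 CPM.

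Dapma7bEVm005500_97402 and Dapma7bEVm003155_95754 met the rule, yet fexofenadine pools of the same exposure stood above the DMSO pools as well. Dapma7bEVm005500_97402 averaged 22.4 ± 8.05 CPM in the 15 cis-nonachlordane pools at 0.669 µM and above and 19.5 ± 7.01 CPM in the 24 fexofenadine pools, against 10.7 ± 8.96 CPM in the 6 DMSO pools (SD). Dapma7bEVm003155_95754 averaged 27.5 ± 6.42 CPM in those 15 pools and 25.3 ± 9.59 CPM with fexofenadine, against 15.3 ± 6.25 CPM in DMSO. All 8 fexofenadine levels had a mean above DMSO for both probes, with log2 ratios of 0.42 to 1.21 for the first and 0.19 to 1.03 for the second.

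The differences from fexofenadine were within error for both. For Dapma7bEVm005500_97402 the log2 fold change was 0.37 ± 0.33 at 0.669 µM and 0.05 ± 0.35 at 66.67 µM (edgeR adjusted p = 0.5662 and 0.9696). For Dapma7bEVm003155_95754 it was 0.20 ± 0.29 and -0.16 ± 0.30 (edgeR adjusted p = 0.7367 and 0.8144). The DMSO pools of this exposure had the lowest mean of the 6 exposures for both probes, where the other 30 DMSO pools averaged 16.4 ± 5.52 and 25.0 ± 6.36 CPM. The same held for Dapma7bEVm027830_96457, at 20.2 CPM, with 7 fexofenadine levels above DMSO and 1 below. Every raised member but Dapma7bEVm015298_96640 (log2 ratio 0.61) had a lower mean in these 6 DMSO pools than in the other 30. Every lowered member but Dapma7bEVm004463_97108 (-1.70) had a higher one. With fexofenadine, 11 of the 13 raised members had a mean above these DMSO pools at 34.2 and 1.08 µM. At each other level 5 to 8 were above. Their median log2 ratio was 0.30 at 34.2 and 1.08 µM and between -0.09 and 0.22 at the others. At 0.0108 µM fexofenadine, 8 of the 17 members were past 0.6 in size, against 6.65% of the probes of the window. At its other levels 2 to 6 were. With cis-nonachlordane 3 were at 0.021 µM and 9 to 15 at each higher level. The level of these 6 DMSO pools enters n of each member, and its part in n was not tested.

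Levels of other members differed between exposures too. In Dapma7bEVm027876_96409 the 15 pools at 0.669 µM cis-nonachlordane and above had at most 76.9 CPM, against 102 to 221 CPM in the DMSO pools of the same exposure and 15.9 to 102 CPM in the 30 DMSO pools of the other exposures. Mean DMSO levels of Dapma7bEVm001285_98069 ran from 5.93 CPM to 39.3 CPM over the 6 exposures, and the methoxyphenol exposure was the highest of them. With 66.67 µM methoxyphenol it had 14.4, 59.7 and 46.8 CPM, against 10.2 to 51.9 CPM in the DMSO pools of that exposure.

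**Figure D4:**
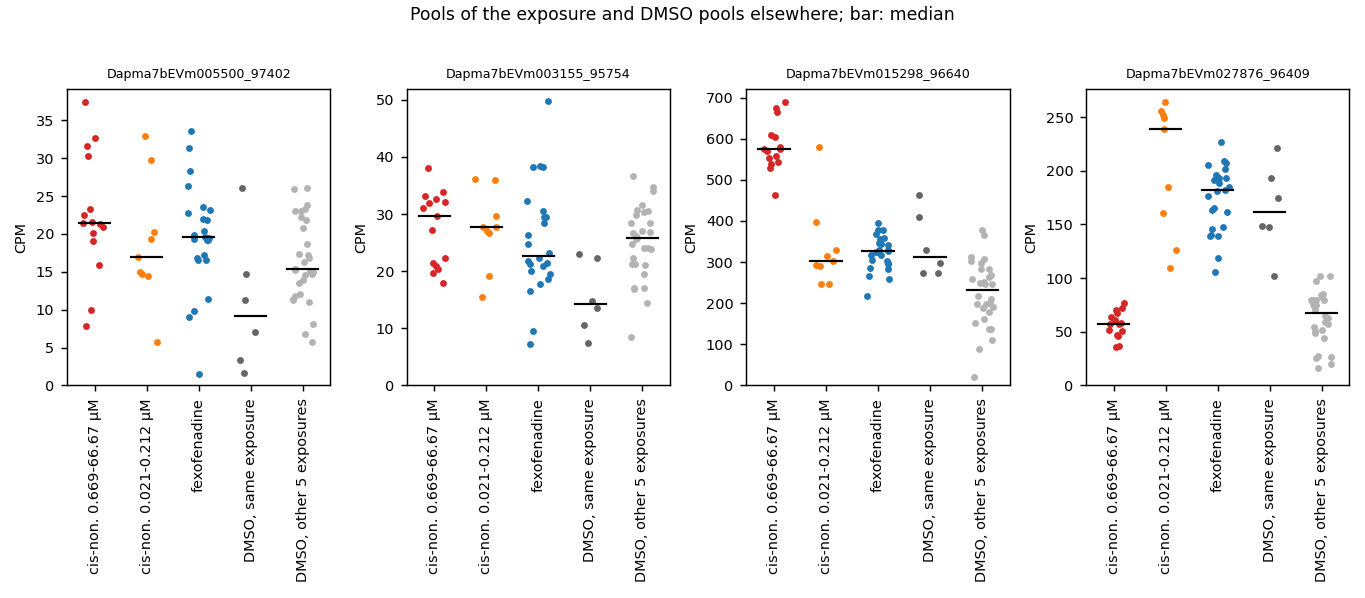
CPM of single pools (points) with medians (bars) of 2 raised members near the fexofenadine level and of the 2 members that changed in a step, for the 5 highest and the 3 lowest concentrations of cis-nonachlordane, fexofenadine, the DMSO pools of that exposure and the 30 DMSO pools of the other 5 exposures. Fexofenadine medians were 19.6 and 22.7 CPM for Dapma7bEVm005500_97402 and Dapma7bEVm003155_95754, and the DMSO medians 9.14 and 14.2 CPM.

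Members that were not called varied widely between pools. Dapma7bEVm027251_97353 and Dapma7bEVm015108_97884 spanned 0 to 134 CPM and 10.2 to 544 CPM over the cis-nonachlordane pools, against 3.40 to 107 CPM and 34.0 to 278 CPM in the DMSO pools of the exposure. At 21.1 µM, a level of the rule, the lowest pool of each fell below the lowest DMSO pool while others exceeded the highest. Their log2 fold changes against fexofenadine at 66.67 µM were 1.28 ± 0.72 and 0.90 ± 0.54 (edgeR adjusted p = 0.3421 and 0.3796). At 0.669 µM they were 0.58 ± 0.77 and -0.26 ± 0.61 (edgeR adjusted p = 0.7165 and 0.8628). Both members had means there, 34.2 and 128 CPM, below the means of 38.1 and 158 CPM in the DMSO pools of the exposure. Across the 36 DMSO pools, with the mean of each exposure removed, their log2 levels correlated at r = 0.86, as a description over pools that share exposures; the median over all 78 pairs of raised members was 0.07.

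Dapma7bEVm002187_96984 was steadier, with 25.2, 22.9 and 27.1 CPM at 66.67 µM and 19.4, 26.5 and 25.9 CPM at 0.669 µM. The DMSO pools of the exposure had a highest of 16.9 CPM, below all of these, but fexofenadine pools reached 29.2 CPM around a median of 15.9. Its log2 fold change against fexofenadine was 0.56 ± 0.29 at 0.669 µM (edgeR adjusted p = 0.2697).

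Among the lowered members, Dapma7bEVm004624_96213 and Dapma7bEVm018600_96105 were below their mean DMSO level at the levels of the rule, with pools inside the DMSO range. At 6.677 µM Dapma7bEVm004624_96213 had 91.6, 8.70 and 89.8 CPM and Dapma7bEVm018600_96105 had 60.0, 12.4 and 52.1 CPM, against 52.7 to 200.5 CPM and 35.2 to 184 CPM in DMSO. Pool B was the low one in both. In DMSO pools the pair correlated at r = 0.64, computed as above. Against fexofenadine the log2 fold changes at 0.669 µM were -0.89 ± 0.56 and -0.28 ± 0.35 (edgeR adjusted p = 0.3948 and 0.7012), and at 66.67 µM Dapma7bEVm004624_96213 had 0.25 ± 0.50 (edgeR adjusted p = 0.8223).

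At 21.1 µM, a concentration of methoxyphenol below its highest, Dapma7bEVm015298_96640 had 938, 958 and 831 CPM, against 283 to 378 CPM in the 6 DMSO pools of the exposure, so all 3 pools lay above every DMSO pool. At 66.67 µM it had 500.3, 509 and 278 CPM, and b was 0.41. Set against the 24 Metribuzin-DA pools of that exposure, which the rule did not use, the log2 fold change at 21.1 µM was 1.44 ± 0.22 (edgeR adjusted p = 2.376e-05). It was the 1 raised member of 13 called higher, against 2.48% of the 1493 probes tested, and kept its call in all 8 alternatives.

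By the same comparison 0 of the 4 lowered members were called lower in edgeR and in DESeq2, with 0.603% of all probes called lower; 1 was under an unadjusted p of 0.05, and it was called higher. This probe, Dapma7bEVm004463_97108, rests on pool C, with 620 CPM beside 5.59 and 0 CPM in pools A and B. Its fold change changed sign to -0.70 without the pools lettered C (edgeR adjusted p = 0.9965). The limit of the rule on methoxyphenol covers 66.67 µM alone.

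Ratios to the DMSO pools that the rule also used are given with no test. Dapma7bEVm004624_96213 and Dapma7bEVm018600_96105 had means above those pools at all 8 methoxyphenol levels, with log2 ratios of 0.22 to 1.70 and 0.09 to 1.10, and their mean DMSO levels there, 31.5 and 36.9 CPM, were the lowest of the 6 exposures. Dapma7bEVm001650_96469 and Dapma7bEVm015108_97884 had means below DMSO at all 8 levels, at -1.09 to -0.04 and -0.93 to -0.03. Dapma7bEVm001285_98069 lay below DMSO at 6 levels and above it at 2, from -1.95 to 1.11 with a median of -1.12.

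The table holds a further probe for 4 of the member transcripts, which allows a look at the same transcript by another pair of detector oligonucleotides. Dapma7bEVm015298_97651 lay at 1636 CPM in DMSO pools and followed Dapma7bEVm015298_96640, with n at 0.91. Its b was 1.11, past the limit of the rule. Against fexofenadine its log2 fold change was 0.91 ± 0.14 at 0.669 µM and 0.98 ± 0.14 at 66.67 µM (edgeR adjusted p = 3.054e-05 and 9.945e-06), and with 21.1 µM methoxyphenol against Metribuzin-DA it was 1.76 ± 0.16 (edgeR adjusted p = 3.158e-10). The transcript thus had 1 probe inside and 1 outside the limit on methoxyphenol.

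The further probes of other members did not follow them. Dapma7bEVm003155_95901, at 102 CPM in DMSO, had an n of 0.08 where Dapma7bEVm003155_95754 had 0.81. Dapma7bEVm018600_97176, at 105 CPM, had -0.08 where Dapma7bEVm018600_96105 had -0.68. With methoxyphenol, b was 0.498 for Dapma7bEVm003155_95901, just under the limit of the rule, and 0.60 for Dapma7bEVm018600_97176, past it. The remaining further probes, Dapma7bEVm015298_97470, Dapma7bEVm002278_96306 and Dapma7bEVm002278_97454, had DMSO means of 0.332, 0.787 and 4.11 CPM, below the window of the rule.

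The other chemicals were tested at each of their 8 levels against the DMSO pools of their exposure, apart from Metribuzin-DA, whose DMSO pools the rule used for b. Across these 8 chemicals member calls were few. They numbered 9 of 1040 member tests (0.865%), at 4 of the 64 levels and for 6 of the members, where 0.458% of all probe tests were called. Fipronil amide and 3,4-dichlorophenyl isocyanate accounted for 8 of the 9.

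At 56.43 µM, fipronil amide lowered 3 of the 3 lowered members that could be tested, against 6.04% of all 1390 probes called lower. Dapma7bEVm027876_96409 had 25.5, 20.9 and 19.01 CPM there, against 54.7 to 84.0 CPM in the 6 DMSO pools, a log2 fold change of -1.48 ± 0.22 (edgeR adjusted p = 1.946e-05). Its pools at 17.9 µM, with 31.0 to 44.5 CPM, also lay below the DMSO range, at -0.82 ± 0.20 (edgeR adjusted p = 0.08832). Dapma7bEVm004624_96213 had 15.7, 60.9 and 8.87 CPM at 56.43 µM, against 88.0 to 199 CPM in DMSO, at -2.23 ± 0.50 (edgeR adjusted p = 0.002838). Dapma7bEVm018600_96105 had 39.2, 74.2 and 20.3 CPM, against 83.5 to 172 CPM in DMSO, at -1.17 ± 0.31 (edgeR adjusted p = 0.01031). Every pool at 56.43 µM was below every DMSO pool for each of the 3, but without the pools lettered A only Dapma7bEVm027876_96409 was still called.

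None of the 13 raised members was called higher with 56.43 µM fipronil amide in edgeR (0 of 13, and 0 in DESeq2), against 9.71% of all probes. The 1 under an unadjusted p of 0.05 was Dapma7bEVm015298_96640, at 0.45 ± 0.19 (edgeR adjusted p = 0.1067). The further probe of that transcript, Dapma7bEVm015298_97651, was called higher, at 0.84 ± 0.13 (edgeR adjusted p = 4.209e-05). Dapma7bEVm001285_98069 had 1.96, 17.1 and 8.87 CPM there, against 11.5 to 54.2 CPM in DMSO, a log2 fold change of -1.70 ± 0.85 (edgeR adjusted p = 0.1787). The effects of the highest concentrations were then compared directly, 66.67 µM cis-nonachlordane over fexofenadine less 56.43 µM fipronil amide over the 24 pools of its partner chemical cetirizine. The 1 raised member called was Dapma7bEVm001285_98069, with a log2 difference of 6.06 ± 0.91 (edgeR adjusted p = 2.139e-06, against 0.829% of the 1447 probes called higher). Of the lowered members 0 were called in edgeR and 0 in DESeq2, with 1.52% of all probes called lower. The 1 under an unadjusted p of 0.05, Dapma7bEVm004624_96213, had a log2 difference above 0, at 2.06 ± 0.74 (edgeR adjusted p = 0.1726). For Dapma7bEVm027876_96409 the log2 difference was 0.03 ± 0.25 (edgeR adjusted p = 0.9900).

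3,4-Dichlorophenyl isocyanate raised 3 members at 6.677 µM, against 2.96% of the 1454 probes tested. Dapma7bEVm001285_98069 had 70.5, 218 and 212 CPM there, against 1.71 to 11.9 CPM in the 6 DMSO pools, a log2 fold change of 4.76 ± 0.80 (edgeR adjusted p = 0.0004847). Dapma7bEVm001650_96469 had 148, 144 and 234 CPM, against 24.9 to 53.1 CPM in DMSO, at 1.89 ± 0.29 (edgeR adjusted p = 0.0002424). Dapma7bEVm002278_97689 had 85.6, 57.7 and 62.4 CPM, against 13.6 to 34.3 CPM in DMSO, at 1.42 ± 0.34 (edgeR adjusted p = 0.01616). For all 3 the treated pools lay above every DMSO pool. Dapma7bEVm002278_97689 was no longer called without the pools lettered C (edgeR adjusted p = 0.3082).

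At 21.1 µM isocyanate 2 members were called higher, against 3.3% of all probes, but the pools disagreed. Dapma7bEVm001285_98069 had 261, 14.1 and 0 CPM, a log2 fold change of 4.14 ± 0.86 (edgeR adjusted p = 0.004234), and Dapma7bEVm001650_96469 had 195, 89.9 and 25.4 CPM, at 1.55 ± 0.33 (edgeR adjusted p = 0.004951). Neither was called without the pools lettered A, where the values were 1.22 and 1.18 (edgeR adjusted p = 0.729 and 0.1347). Dapma7bEVm001285_98069 also lost its call without the pools lettered C, DMSO pools included (edgeR adjusted p = 0.06961), and with the DMSO pools labelled CON alone (edgeR adjusted p = 0.08288). Pool C at this level stood apart, with 118094 counts, of which 1 probe took 74.8%, and Dapma7bEVm017393_97178 had 1694 CPM in it, against 5.27 and 3.52 CPM in pools A and B. Without that 1 library the fold changes of the 2 called members were 4.26 and 1.47, and both were called (edgeR adjusted p = 0.008614 and 0.01941). The highest concentration, 66.67 µM, had 2 pools and 0 raised members called in edgeR, with 1.72% of all probes called higher, and 0 called in DESeq2. At an unadjusted p under 0.05 stood 3 raised members, all of them lower than in DMSO, Dapma7bEVm006463_96886 at -0.70, Dapma7bEVm027251_97353 at -4.01 and Dapma7bEVm015108_97884 at -1.85. Of the lowered members 0 were called lower there in edgeR, with 0 under an unadjusted p of 0.05 and 0.757% of all probes called lower, while DESeq2 called 1.

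**Figure D5:**
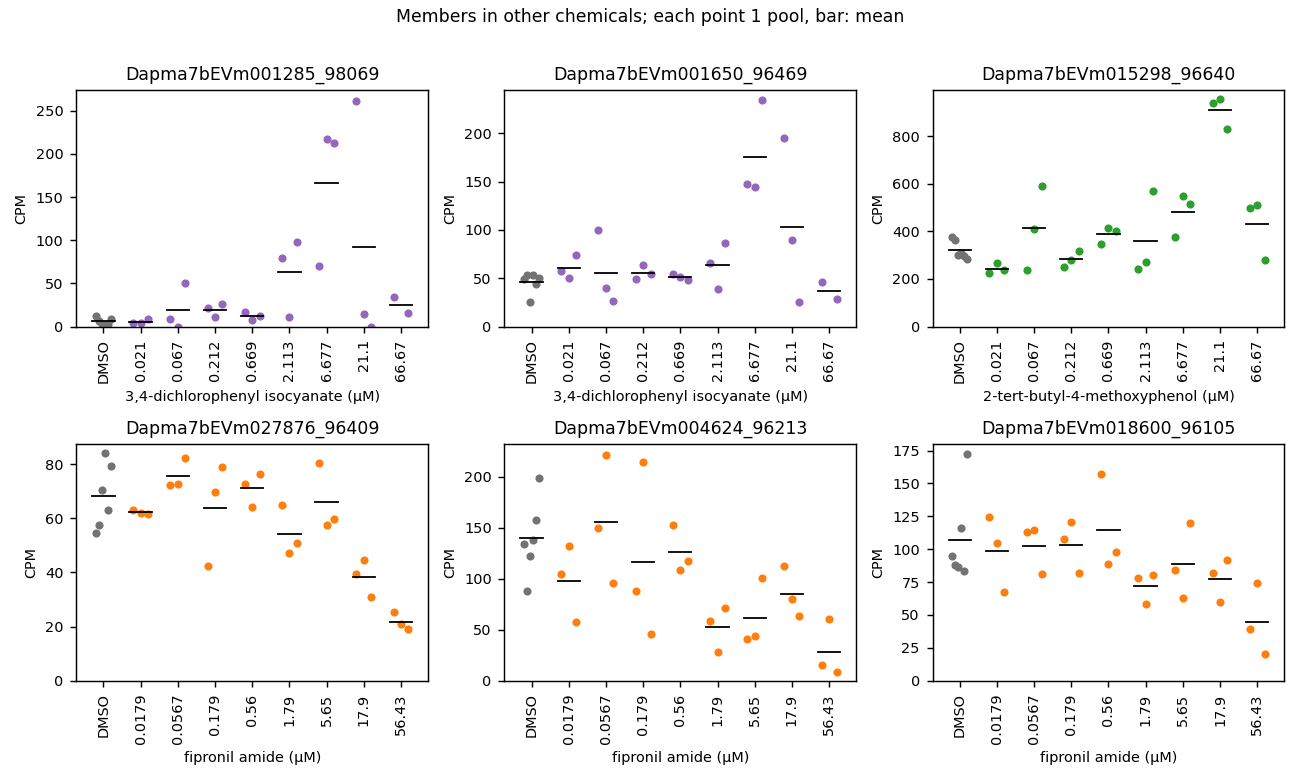
CPM of single pools (points) and their mean (bars) in DMSO and over the concentrations of 3,4-dichlorophenyl isocyanate, 2-tert-butyl-4-methoxyphenol and fipronil amide in µM, low to high, for members called with them. The 3 lowered members fall at 56.43 µM fipronil amide, and Dapma7bEVm015298_96640 peaks at 21.1 µM methoxyphenol.

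The remaining call went against the direction seen with cis-nonachlordane. Dapma7bEVm018600_96105 averaged 159 ± 17.4 CPM with 0.021 µM Metolachlor OA, against 79.3 ± 27.6 CPM in DMSO (SD, n = 3 and 6), a log2 fold change of 1.09 ± 0.24 (edgeR adjusted p = 0.01581, against 1.13% of all probes called higher and 0.423% called lower). It was lost in 4 of 8 alternatives, among them leaving out the pools of any 1 letter. With 2.113 µM Metribuzin-DA, Dapma7bEVm004624_96213 had 84.4 to 249 CPM, against 16.9 to 63.4 CPM in the DMSO pools that b also used, given with no test.

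The size of a ratio alone separated few levels. Dapma7bEVm001285_98069 was past 0.6 in log2 ratio to DMSO at 44 of the 88 levels of the other 11 chemicals, higher at 25 and lower at 19, and Dapma7bEVm004624_96213 at 47, higher at 21 and lower at 26. Dapma7bEVm006463_96886 was past it at 2 of the 88, both lower, and Dapma7bEVm015298_96640 at 5, all higher. Among all probes of the window the share past 0.6 ran from 2.88% with 0.021 µM hydrochlorothiazide to 51.5% with 66.67 µM methoxyphenol.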

How the data were processed

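Raw counts for each probe and library stand in 1 table the authors deposited, with 335 libraries, each a pool of up to 5 animals per the labels' protocols. They also deposited tables of log2 values per chemical, each log2(count + 1) of the same counts within 1e-04 for all 228288 values checked; only the concentrations were taken from them. The submitters' processing notes name bcl2fastq, without a version. An aligner is not given in the sources used here. Columns matched to no sample numbered 0, and no libraries held identical counts (0 pairs).

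CPM used the column total, with no other scaling, and 2 CPM were added before log2. Library totals ran from 118094 to 1171681 counts (median 619413), so that levels near 10 CPM rest on few reads. Tests ran on the counts as deposited with the quasi-likelihood F test of edgeR 4.0.16 under R 4.3.3, after filterByExpr and TMM scaling, and Benjamini-Hochberg adjustment over all probes tested (threshold 0.05). Alternatives were DESeq2 1.42.0, RLE scaling, no filter on low counts, the replicate letter as a block, other reference pools and leaving out each letter. Metribuzin-DA against DMSO was fitted too, but is given as values only, since the rule used those DMSO pools. The fit without 1 isocyanate library was added after seeing the data. Each fit was tested on simulated counts. Summaries and figures used Python 3.11.15, numpy 2.4.6, pandas 2.3.3 and matplotlib 3.10.9.

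The members, lists and tests were chosen with earlier results of these data known. Named probes are, in each direction, the 10 members with the largest n, members called at both 0.669 and 66.67 µM or with another chemical, members with a further probe of the same transcript, and the 2 probes nearest each threshold on either side. Dapma7bEVm006463_96886 falls outside that rule and was named after its values were seen. Gene lists by product name could not be applied, since 0 probe identifiers matched the annotation.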

Additional observations from a re-analysis of the deposited data

Results flagged for a closer look

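In 4 of 34 groups of 6 DMSO pools looked at, the highest or lowest pool lay so far from the nearest other that the gap, as a share of the group's range, exceeded Dixon's 95% critical value. For separate groups of normally distributed values, chance gives this in about 1 in 20 groups. The groups here share pools and some rest on few counts, so no excess is read from the 4. Dapma7bEVm001285_98069 had 16.9 CPM in the DMSO pool XtraC C of the cis-nonachlordane exposure, where the next pool had 12.7 CPM, and 10.2 CPM in the same-named pool of the methoxyphenol exposure, where the next had 36.6 CPM. Dapma7bEVm003505_96983 had 161 CPM in the DMSO pool XtraC B of the methoxyphenol exposure, where the next had 117 CPM. Dapma7bEVm027251_97353 had 194 CPM in the DMSO pool CON C of that exposure, where the next had 95.6 CPM.

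The effect on Dapma7bEVm001285_98069 differed between 66.67 µM cis-nonachlordane and 56.43 µM fipronil amide by 6.06 ± 0.91 on the log2 scale (edgeR adjusted p = 2.139e-06), each set against the partner chemical of its exposure.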

How the results depend on the processing

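Membership depended on the pools. The rule gave 13 raised and 4 lowered probes, but 17 and 11 with the DMSO pools labelled CON alone, and 11 to 27 raised and 8 to 11 lowered when the pools of 1 letter were left out; of the members, 7 raised and 4 lowered were found again with CON alone, and 4 to 9 raised and 2 or 3 lowered without 1 letter. Other pseudocounts, TMM-scaled CPM, XtraC DMSO pools alone and a minimum of 20 CPM with no upper limit gave 10 to 14 raised and 3 to 5 lowered. With XtraC alone, however, 10 raised members and 1 lowered member were found again. Dapma7bEVm001285_98069, at a mean of 17.8 CPM over all DMSO pools, was not kept with the minimum of 20 CPM. Nor was it kept without the pools lettered A, where its b was 0.54. Dapma7bEVm003155_95754 and Dapma7bEVm027876_96409 met the rule in all 9 alternatives.

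Leaving out the pools of 1 letter gave 4 raised members called at 0.669 µM each time (7 with all pools; 5 with the 2 lowest levels as reference, 6 with DESeq2 or no filter), 1 to 3 lowered members at 56.43 µM fipronil amide (3) and 0 to 1 raised members at 66.67 µM isocyanate (0), where 1 pool was left and is assumed to vary like the other groups. In that last comparison DESeq2 called 1 lowered member where edgeR called 0. With the replicate block 4 raised members, not 3, were called at 66.67 µM cis-nonachlordane and 4, not 3, at 6.677 µM isocyanate; the other counts of calls were the same. The letters did not pair the pools throughout: the mean correlation of deviations between pools of the same letter was 0.11, 0.14 and 0.03 for A, B and C in the cis-nonachlordane fit. It was higher in the exposure of Metolachlor OA (0.46, 0.19 and 0.19) and isocyanate (0.30, 0.14 and 0.17), with single pairs under 0.1 in both. Of 204 repeats of the 25 single calls, 173 kept direction and call, 30 lost the call and 1 changed sign, Dapma7bEVm004463_97108 with 21.1 µM methoxyphenol without the pools lettered C. Leaving out each letter gave it -0.70 to 7.46. Causes were not tested. With 3 pools of 412739 to 826525 counts a level, members under about 20 CPM rest on few reads, and a missing call there does not show that levels were equal.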
